A study of Drosophila melanogaster with 14 samples.

Results

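The transcripts of 10 genes of integrin adhesion and muscle attachment, *mys*, *if*, *mew*, *rhea*, *Ilk*, *parvin*, *stck*, *Tsp*, *wb* and *kon*, were followed in *Drosophila* flight muscle and wing discs. The genes were picked by symbol for their known roles, and all 10 were found among the 17252 genes shared by the flight muscle table of 17890 genes and the wing disc table of 17490 genes.

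The study used RNA-seq on 14 samples to ask what the single fly *Tet* gene, which encodes an enzyme that oxidises methylated cytosine, does during the formation of the indirect flight muscles (IFM), the large fibrillar muscles of the thorax. IFM fibres were dissected from pupae at 96 h after puparium formation (APF), from 2 samples homozygous for *Tet null*, 2 wild-type (w1118) samples, 2 samples homozygous for *Tet CD* and 2 samples of the *Tet-GFP* knock-in. *Tet CD* is a catalytically dead allele built into the *Tet-GFP* knock-in, so that both lines of this pair carry GFP in frame with TET, and *Tet-GFP* served as the control. Whole wing discs, which hold the adult muscle precursors and a large epithelium, were dissected from wandering larvae of the last instar, from 3 *Tet null* and 3 wild-type samples. *Tet null* animals are known to die as pupae, so their IFM came from animals close to the end of their development. How many animals entered a sample is not given in the sources used here.

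Integrins are pairs of an alpha and a beta subunit that span the cell membrane, bind the extracellular matrix outside the cell and hold the actin cytoskeleton through a set of adaptor proteins inside it. In flies, muscles end on tendon cells of the epidermis, where both partners place integrins on either side of a shared matrix: the subunit encoded by *mew* is known from the tendon side and that encoded by *if* from the muscle side, each with the beta subunit encoded by *mys*. In the larval wing disc the same alpha subunits are known to divide the epithelium, with *mew* on the dorsal and *if* on the ventral side, and they later hold the wing surfaces together.

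Levels are given as RPKM, reads per kilobase of exon scaled to library size, so that genes of different length can be set beside each other. Library size was set by factors from the median gene ratio within each pair of groups (median-ratio scaling), not by each library's reads alone. Before testing, values were turned into log2(RPKM + 0.5), a scale that understates changes of low genes such as *kon* and *wb* in IFM, and groups were compared with limma across all genes that averaged 0.5 RPKM or more. A call needed a fold change over 1.5 and a *P* value under 0.05 after Benjamini-Hochberg adjustment over all genes tested. From the spacing of the low values, between 17100000 and 46600000 reads per library were estimated to lie on genes, and each of the 10 genes rested on an estimated 122 to 10613 reads in every library.

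*Tet* itself followed the labels, with 0.405 and 0.219 RPKM in *Tet null* and 2.04 and 3.01 RPKM in wild-type IFM, and 0.352 to 0.475 RPKM in *Tet null* wing discs against 148 to 205 RPKM in wild-type wing discs. In the pair that keeps the *Tet* transcript, it was at 4.19 and 3.77 RPKM in *Tet CD* and at 3.96 and 3.66 RPKM in *Tet-GFP*. For 1 *Tet null* IFM library the tissue is labelled as wing disc, whereas the title and the pupal age are those of IFM, and its 11 flight muscle markers summed to 46720 RPKM, against at most 118 RPKM in any wing disc library, and it was treated as IFM. One library stood apart: in wild-type wing disc library 2 only 976 genes were at 0, against 2376 to 3978 in the other wing disc libraries, and the median of 119 odorant and gustatory receptor genes, known from sensory neurons, was 2.12 RPKM against 0.0273 to 0.132 RPKM. *Tet null* IFM library 2 also had fewer genes at 0 (1833) than the other IFM libraries (3285 to 4801). Wing disc results for the 10 genes are therefore given also without that wild-type library. The deposited values had been scaled separately for each pair of IFM groups, which touches only comparisons across the pairs.

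In wild-type tissue, all 10 genes were present in every library and all 10 were at a higher RPKM in each of the 3 wing disc libraries than in either IFM library. The tables were normalised separately, so these levels are set side by side without a test. In such bulk samples fewer cells of a type and less RNA per cell cannot be told apart. Mitochondrial genes held an estimated 47.8% and 31.0% of the reads on genes in wild-type IFM. For wing discs the estimate was exactly 0%. Whether mitochondrial genes were counted there is not known, so 0% is not read as a measured share. The IFM share lowers the RPKM of all other IFM genes, and the ratios given here were not corrected for it. The wing disc mean was 14.3 times the IFM mean for *kon* and 9.23 times for *mew*, but only 1.72 times for *if*. For *wb*, *Ilk*, *Tsp*, *mys*, *rhea*, *parvin* and *stck* the ratio ran from 6.47 down to 1.94. Thus *mew* at 36.0 ± 5.55 RPKM stood above *if* at 17.2 ± 2.48 RPKM in wild-type discs (SD, n = 3), whereas in wild-type IFM *mew* at 3.90 ± 0.0823 RPKM stood below *if* at 9.99 ± 2.14 RPKM (SD, n = 2).

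The order of the levels within a tissue also differed in its detail. In wild-type IFM, *mys* was the most abundant of the 10 at 19.8 ± 0.949 RPKM, at a percentile of 93.6 among the genes above 0, and *wb* (0.972 ± 0.0321 RPKM) and *kon* (0.583 ± 0.0548 RPKM) were the least abundant. Between these ends, neighbours overlapped within the run of *stck*, *if* and *rhea* and within that of *Tsp*, *Ilk* and *mew*, while *parvin* stood apart from both neighbours. In wild-type wing discs *mys* again led at 61.3 ± 9.84 RPKM, followed by *mew* and then *rhea*. Neighbours overlapped within the run of *rhea*, *stck*, *Ilk*, *Tsp*, *if* and *parvin*. The gene *wb*, at 6.29 ± 0.810 RPKM, was last there and overlapped with *kon* at 8.35 ± 1.59 RPKM.

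**Figure D1:**
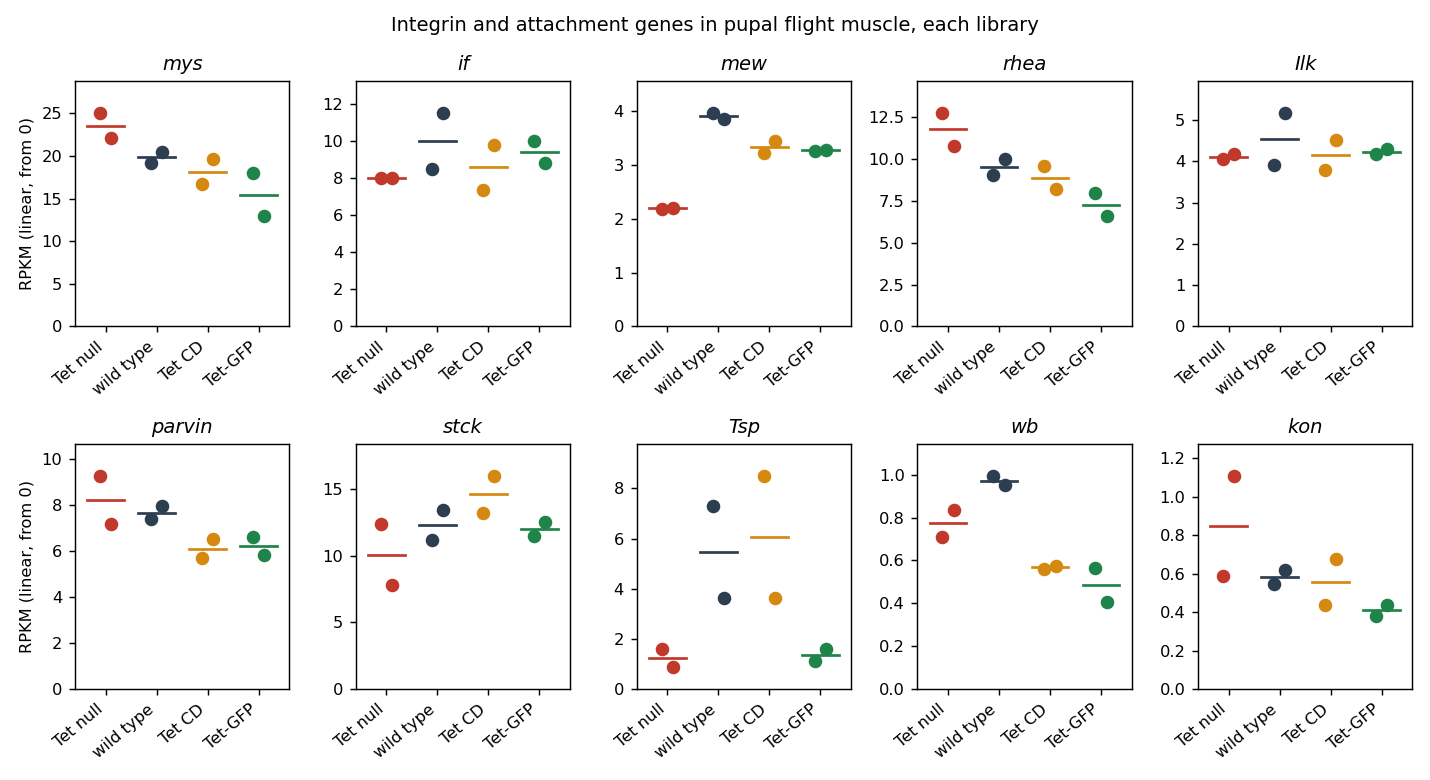
RPKM of the 10 genes in each of the 8 IFM libraries (points; linear axes from 0; horizontal lines are the means of 2 libraries). The *Tsp* panel has the widest spread, 0.872 to 8.50 RPKM, and the *mew* panel shows both *Tet null* libraries, at 2.17 and 2.20 RPKM, below the other 6.

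The first comparison asked what the absence of *Tet* does in IFM. None of the 10 genes was called between *Tet null* and wild-type IFM by limma, while 8.29% of the 8466 genes tested were, 5.5% as higher and 2.79% as lower in *Tet null*. Of the 10, *mew* and *Tsp* were the 2 with an unadjusted *P* under 0.05, where 26.8% of all genes were under that limit. Groups did not overlap for 6 of the 10 (2 higher and 4 lower in *Tet null*), against 59.2% of all genes tested (29% higher and 30.2% lower). The median absolute log2 fold change of the 10 was 0.29, and that of all genes 0.40.

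Among the integrin subunits, *mew* (alpha PS1; FBgn0004456, chromosome X from 13214409 to 13258490 on the dm6 assembly, minus strand) had 2.17 and 2.20 RPKM in *Tet null* and 3.96 and 3.84 RPKM in wild-type IFM. The libraries of each genotype were close to each other, and the genotypes did not overlap. The log2 fold change was -0.71 (SE 0.17, 95% interval -1.17 to -0.25, limma adjusted *P* = 0.083), which missed the threshold. Over all alternatives its adjusted *P* ran from 0.040 to 0.29. It was under 0.05 in a fit of all 4 IFM groups together, at an unchanged log2 fold change.

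The partner alpha subunit *if* (alpha PS2; FBgn0001250, chromosome X from 16752189 to 16783434, minus strand) had 7.99 and 8.00 RPKM in *Tet null* and 8.48 and 11.5 RPKM in wild-type IFM. Both *Tet null* values were the lower ones, but the wild-type libraries differed more from each other than *Tet null* did from the nearer of them (log2 fold change -0.29, SE 0.24, limma adjusted *P* = 0.50). The common beta subunit *mys* (beta PS; FBgn0004657, chromosome X from 8061645 to 8070237, plus strand) lay on the other side, at 25.1 and 22.1 RPKM in *Tet null* IFM and 19.2 and 20.5 RPKM in wild-type IFM (log2 fold change 0.24, SE 0.22, limma adjusted *P* = 0.54). The groups of *mys* did not overlap, yet the interval of the difference, -0.35 to 0.83, included 0.

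The 4 adaptor genes code for proteins on the inner face of the adhesion site. For *rhea*, the fly talin that links the beta tail to actin (FBgn0260442, chromosome 3L from 8545001 to 8574409, plus strand), *Tet null* IFM had 12.7 and 10.8 RPKM and wild-type IFM 9.02 and 10.0 RPKM (log2 fold change 0.29, SE 0.22, limma adjusted *P* = 0.46). Talin thus sat on the same side as *mys*, with no overlap of the groups and an interval of -0.29 to 0.87. The 3 genes of the Ilk, PINCH and parvin complex overlapped between the genotypes. *Ilk*, integrin-linked kinase (FBgn0028427, chromosome 3L from 21216901 to 21219240, plus strand), had 4.05 and 4.16 RPKM in *Tet null* and 3.91 and 5.17 RPKM in wild-type IFM. Its partner *parvin* (FBgn0052528, chromosome X from 19746041 to 19748458, plus strand) had 9.26 and 7.17 RPKM in *Tet null* and 7.36 and 7.94 RPKM in wild-type IFM, and 14.6% of its exonic bases are shared with an annotated antisense RNA and 7.88% with the neighbouring gene *Alr*, so its value is less certain. The fly PINCH gene *stck* (FBgn0020249, chromosome 3R from 8356978 to 8359964, plus strand) had 12.4 and 7.81 RPKM in *Tet null* and 11.2 and 13.4 RPKM in wild-type IFM. For these 3 genes the log2 fold changes were between -0.30 and 0.09, with limma adjusted *P* of 0.57 to 0.84.

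On the matrix side, *Tsp* moved furthest of the 10. It encodes thrombospondin, an integrin ligand that tendon cells are known to deposit at the muscle end (FBgn0031850, chromosome 2L from 6686791 to 6709086, minus strand). *Tsp* had 1.61 and 0.872 RPKM in *Tet null* and 7.31 and 3.62 RPKM in wild-type IFM. Both *Tet null* libraries were below both wild-type libraries, and the libraries of each genotype were themselves far apart. The log2 fold change was -1.74 (SE 0.40, 95% interval -2.81 to -0.67), a level 0.300 times that of wild type on the log2(RPKM + 0.5) scale, with a limma adjusted *P* of 0.075, short of the threshold. That value ran from 0.032 to 0.28 over the alternatives, and it was under 0.05 with the replicate number as a block and when values were scaled to the reads on genes.

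The laminin gene *wb*, an alpha chain that binds integrins (FBgn0261563, chromosome 2L from 14263027 to 14328262, plus strand), had 0.709 and 0.836 RPKM in *Tet null* and 0.995 and 0.950 RPKM in wild-type IFM. *Tet null* was the lower in both libraries, and the difference of -0.21 on the log2 scale (SE 0.19, limma adjusted *P* = 0.53) was about as large as its error. *kon*, a transmembrane protein that growing muscle ends need to recognise their tendon cell (FBgn0032683, chromosome 2L from 18487747 to 18503978, minus strand), was the lowest of the 10 in wild-type IFM. It had 0.588 and 1.11 RPKM in *Tet null* IFM and 0.545 and 0.622 RPKM in wild-type IFM, so that 1 *Tet null* library lay within the wild-type range and the other above it (log2 fold change 0.29, SE 0.27, limma adjusted *P* = 0.55).

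The second comparison asked about the enzymatic activity alone. Between *Tet CD* and *Tet-GFP* IFM, limma called 0 of the 9 genes tested and 0% of all 8141 genes tested, and *kon*, with a mean under 0.5 RPKM, was not tested. One of the 9, *Tsp*, had an unadjusted *P* under 0.05, as did 6.07% of all genes. Groups did not overlap for 3 of the 9, each higher in *Tet CD*, against 34.2% of all genes (15.4% higher and 18.8% lower). The libraries of this pair are numbered 1 and 3 in the table and 1 and 2 in the sample titles, and they are given here in the order of the table.

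*Tsp* had 8.50 and 3.62 RPKM in *Tet CD* IFM, against 1.12 and 1.58 RPKM in *Tet-GFP* IFM. Both *Tet CD* libraries were higher, and they differed from each other by more than the *Tet-GFP* libraries did (log2 fold change 1.73, SE 0.45, 95% interval 0.46 to 3.0, limma adjusted *P* = 0.67). Set beside the other pair, which was scaled separately, the *Tet CD* values overlapped with those of wild-type IFM and the *Tet-GFP* values lay within those of *Tet null* IFM.

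The other 8 tested genes stayed between -0.13 and 0.27 on the log2 scale. *rhea* had 9.57 and 8.19 RPKM in *Tet CD* IFM against 7.97 and 6.58 RPKM in *Tet-GFP* IFM, and *stck* had 13.2 and 16.0 RPKM in *Tet CD* IFM against 11.5 and 12.5 RPKM in *Tet-GFP* IFM. In both genes the *Tet CD* libraries were just above the *Tet-GFP* libraries, at log2 fold changes of 0.27 each with SE of 0.19 (limma adjusted *P* = 0.96 for both). *mew*, whose values did not overlap in the other pair, had 3.21 and 3.44 RPKM in *Tet CD* IFM around 3.26 and 3.27 RPKM in *Tet-GFP* IFM, and the interval of its difference was -0.37 to 0.41. For *mys*, *Tet CD* IFM had 16.7 and 19.6 RPKM and *Tet-GFP* IFM 18.0 and 12.9 RPKM. The remaining genes overlapped as well: *if* had 7.38 and 9.78 RPKM in *Tet CD* IFM against 9.98 and 8.79 RPKM in *Tet-GFP* IFM, and *wb* had 0.562 and 0.575 RPKM in *Tet CD* IFM against 0.563 and 0.408 RPKM in *Tet-GFP* IFM. *kon* had 0.438 and 0.678 RPKM in *Tet CD* IFM and 0.379 and 0.439 RPKM in *Tet-GFP* IFM.

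The effects of the alleles were then compared with each other, as the *Tet null* effect minus the *Tet CD* effect over all 8 IFM libraries. Of the 10 genes, limma called 0 at an adjusted *P* under 0.05, a limit passed by 0.683% of 8344 genes, and 2 had an unadjusted *P* under 0.05, as did 18.7% of all genes. *Tsp* had the widest difference, -3.47 on the log2 scale (SE 0.68, 95% interval -5.12 to -1.82, limma adjusted *P* = 0.088), with -1.74 for *Tet null* and 1.73 for *Tet CD*. *mew* followed at -0.73 (SE 0.19, 95% interval -1.18 to -0.28, limma adjusted *P* = 0.13), with -0.71 for *Tet null* and 0.02 for *Tet CD*. The other 8 genes lay between -0.57 and 0.11 with limma adjusted *P* of 0.44 or above.

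**Figure D2:**
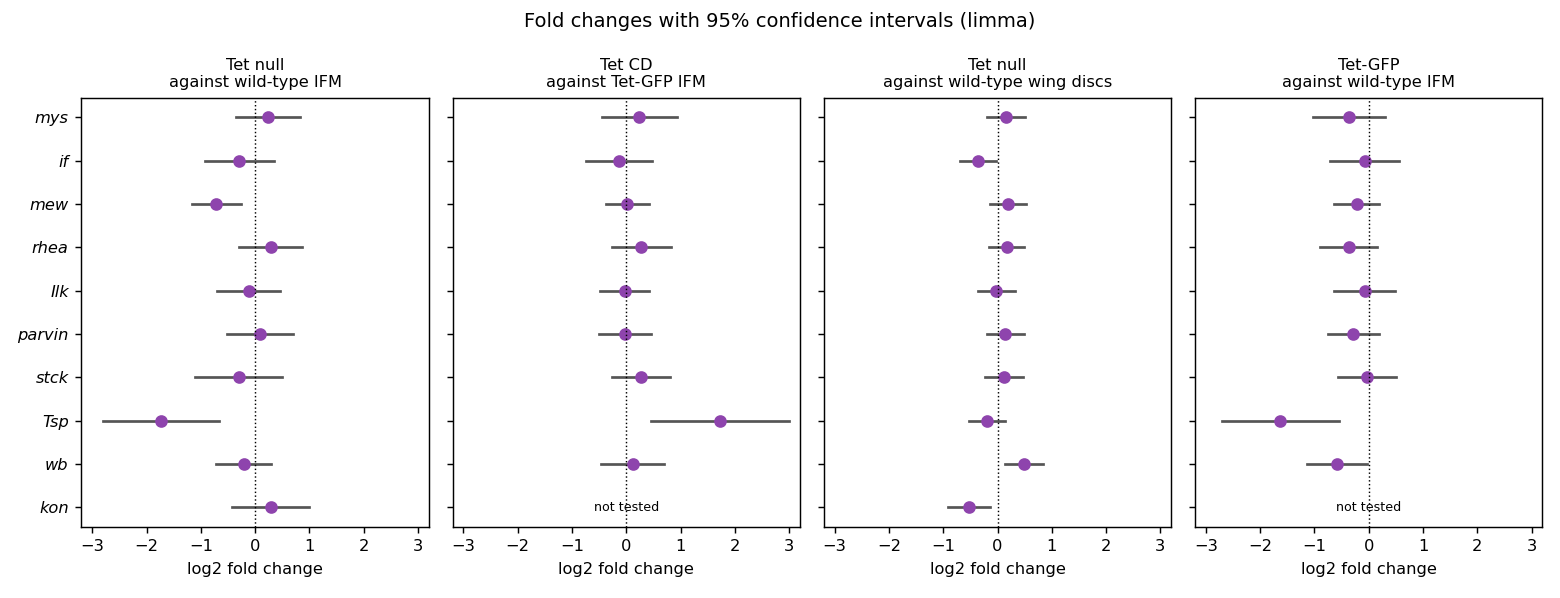
Log2 fold change (point) with 95% confidence interval (line) of each gene in 4 comparisons, from limma on log2(RPKM + 0.5); *kon* was not tested in the comparisons marked so. *Tsp* stands at -1.74 in *Tet null* against wild-type IFM, 1.73 in *Tet CD* against *Tet-GFP* IFM and -1.63 in *Tet-GFP* against wild-type IFM, and no gene passed the call.

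The control lines themselves were also set against each other. *Tet-GFP* IFM is the control of *Tet CD* and wild-type IFM that of *Tet null*, so this comparison shares its libraries with the earlier ones, and it spans pairs that were scaled separately, by factors of 0.976 to 1.02. limma called 0 of 9 genes tested and 0% of all 8156 genes, with 2 of the 9 at an unadjusted *P* under 0.05 (10.3% of all genes). All 9 fold changes were below 0, with a median of -0.28 beside -0.02 for all genes, and groups did not overlap for 6 of the 9, all lower in *Tet-GFP*, against 42.9% of all genes (20.6% higher and 22.4% lower). *Tsp* was 0.323 times the wild-type level in *Tet-GFP* IFM on the log2(RPKM + 0.5) scale (log2 fold change -1.63, SE 0.38, limma adjusted *P* = 0.36). For *wb* the difference was -0.58 (SE 0.20, limma adjusted *P* = 0.47), from the 0.563 and 0.408 RPKM in *Tet-GFP* IFM against 0.995 and 0.950 RPKM in wild-type IFM. *rhea* and *mys* were at -0.37 each. Under median-ratio scaling over the libraries compared, the value of *stck* turned from -0.03 to 0.01.

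When *Tet null* IFM was set against *Tet-GFP* IFM, again across the pairs, limma called 0 of the 10 genes and 0.0119% of 8369 genes, with 2 of the 10 at an unadjusted *P* under 0.05 (26.6% of all genes). Groups did not overlap for 8 of the 10 (5 higher and 3 lower in *Tet null*), against 63.1% of all genes (30.1% higher and 33% lower). The 2 with the lowest unadjusted *P* were *mew*, at -0.49 (SE 0.16, limma adjusted *P* = 0.16), and *rhea*, at 0.66 (SE 0.22, limma adjusted *P* = 0.17). *Tsp*, low in both groups, differed by -0.11 (95% interval -0.91 to 0.69). *mys* was at 0.61 (SE 0.27, limma adjusted *P* = 0.23), and *kon* at 0.54 (SE 0.27, limma adjusted *P* = 0.27).

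Over the 8 IFM libraries, the genes differed in how steady they were. *Ilk* varied least, by a factor of 1.36 between the lowest and the highest library and a coefficient of variation of 10.1%, and *if* came next with a factor of 1.56. *Tsp* varied most, by a factor of 9.74 and a coefficient of variation of 82.6%. *kon* and *wb*, the lowest genes, spanned factors of 2.93 and 2.44. The highest group mean was that of *Tet null* for *mys*, *rhea*, *parvin* and *kon*, that of *Tet CD* for *stck* and *Tsp*, and that of wild type for *if*, *mew*, *Ilk* and *wb*.

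The IFM preparations held transcripts of neighbouring tissues, and their levels are set here beside those of *Tsp* and *mew*. The summed level of 8 cuticle and epidermis markers, led by *Cpr64Ad*, was 228 and 137 RPKM in *Tet null* and 1466 and 1051 RPKM in wild-type IFM, and limma called all 8 lower. In the other pair the sum was 605 and 1052 RPKM in *Tet CD* IFM against 566 and 516 RPKM in *Tet-GFP* IFM, with 0 of 8 called. Within *Tet null* and within wild type, the library with the higher *Tsp* value had the higher cuticle sum. Within *Tet CD* and within *Tet-GFP* it had the lower cuticle sum. *mew* was level in this pair, at a log2 fold change of 0.02. The 4 tendon cell markers, in which *sr* and *slow* lead, stayed low throughout, at 2.80 to 3.29 RPKM in *Tet null* IFM against 2.87 to 2.98 RPKM in wild-type IFM, and at 2.13 to 3.34 RPKM in *Tet CD* IFM against 1.97 to 2.08 RPKM in *Tet-GFP* IFM, with none called.

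Of 6 neuron markers, led by *Syt1*, 5 were called higher in *Tet null* IFM, with sums of 64.6 and 53.9 RPKM against 9.78 and 9.15 RPKM in wild-type IFM, and of the glia markers, led by *Gs2*, 1 of the 4 tested was called higher. For the markers of flight muscle (*Act88F*), hemocytes (*crq* and *Hml*), fat body (*Fbp1*), trachea (*verm*), disc epithelium (*vg*) and adult muscle precursors (*Mef2*), 0 were called between *Tet null* and wild-type IFM. The 4 trachea markers nevertheless summed to 19.5 and 14.5 RPKM in *Tet null* against 27.4 and 37.4 RPKM in wild-type IFM, and to 15.3 and 29.5 RPKM in *Tet CD* against 11.6 and 11.9 RPKM in *Tet-GFP* IFM, so that both *Tet null* and *Tet-GFP* were below their partner group, as for *Tsp*. Their median log2 fold changes were -0.88 for *Tet null* against wild type, 0.66 for *Tet CD* against *Tet-GFP* and -1.40 for *Tet-GFP* against wild type. Within wild type and within *Tet CD*, the library with the higher *Tsp* value had the lower trachea sum. Within *Tet null* and within *Tet-GFP* it had the higher trachea sum. The 4 fat body markers summed to 74.2 and 16.3 RPKM in *Tet null* against 44.0 and 94.7 RPKM in wild-type IFM, which overlapped, and to 91.2 and 161 RPKM in *Tet CD* against 48.8 and 38.4 RPKM in *Tet-GFP* IFM. The adult muscle precursor sum was 17.9 and 18.7 RPKM in *Tet null* against 23.1 and 26.0 RPKM in wild-type IFM, and 22.1 and 24.4 RPKM in *Tet CD* against 24.0 and 20.2 RPKM in *Tet-GFP* IFM. No marker of the 10 lists was called between *Tet CD* and *Tet-GFP* IFM. Flight muscle markers were abundant in all 8 IFM libraries, with sums of 36325 to 46720 RPKM and no marker at 0. The part of these other tissues in the values of *Tsp* and *mew* was not tested.

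**Figure D3:**
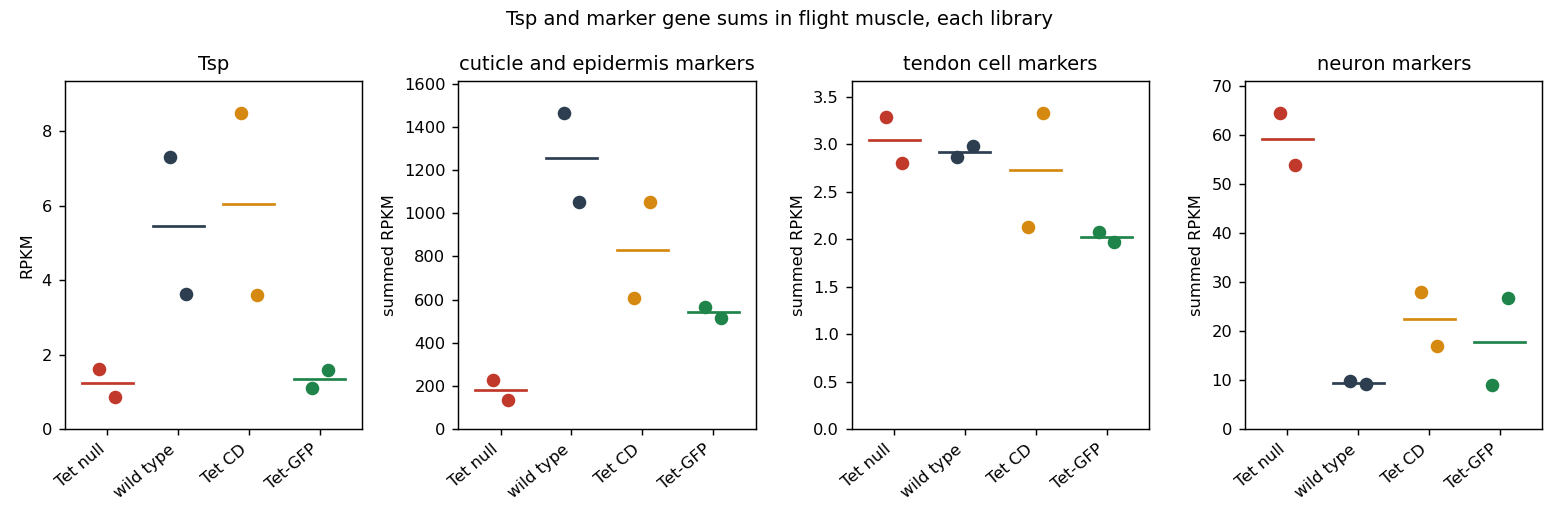
*Tsp* (RPKM) and the summed RPKM of 3 marker lists in each IFM library (points; linear axes from 0; lines are means of 2 libraries). *Tsp* and the cuticle sum are both low in *Tet null*, whereas *Tsp* is also low in *Tet-GFP*, at 1.12 and 1.58 RPKM, where the cuticle sum is 566 and 516 RPKM, and the tendon cell sum stays between 1.97 and 3.34 RPKM in all 8 libraries.

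The genes whose levels were most like those of *Tsp* over the 8 IFM libraries were *CG3909*, *eca* and *CG4199*, with Pearson r of 0.986, 0.962 and 0.923 on the log2(RPKM + 0.5) scale, out of 6496 genes with a mean of at least 1 RPKM, of which 8 were above 0.9. The libraries fall into groups that share a genotype, so r is only a description. *eca*, for one, had 4.42 and 2.88 RPKM in *Tet null* and 9.44 and 7.39 RPKM in wild-type IFM, and 11.6 and 8.43 RPKM in *Tet CD* IFM against 4.33 and 5.42 RPKM in *Tet-GFP* IFM.

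The wing disc comparison asked whether the loss of *Tet* already alters these transcripts before the flight muscles form. Between *Tet null* and wild-type wing discs limma called 0 of the 10 genes, against 4.15% of 12631 genes (1.67% higher and 2.48% lower), and 3 of the 10 (*if*, *kon* and *wb*) had an unadjusted *P* under 0.05, as did 17.7% of all genes. Groups did not overlap for 4 of the 10, *rhea* and *wb* higher and *if* and *kon* lower in *Tet null*, against 25.4% of all genes (13% higher and 12.5% lower). Without wild-type library 2 they did not overlap for 6 of the 10 (*Ilk* and *Tsp* lower as well), against 35.6% of all genes (17.9% higher and 17.7% lower). The median absolute log2 fold change of the 10 was 0.18 and that of all genes 0.35. The median of all genes was -0.08, but it moved to 0.18 with the receptor background subtracted and to -0.37 with scaling to the reads on genes, so that differences are also given relative to it. The calls over all genes moved with the scaling too, with 211 higher and 313 lower as deposited, 177 and 123 with the background subtracted, and 122 and 352 with scaling to the reads on genes.

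**Figure D4:**
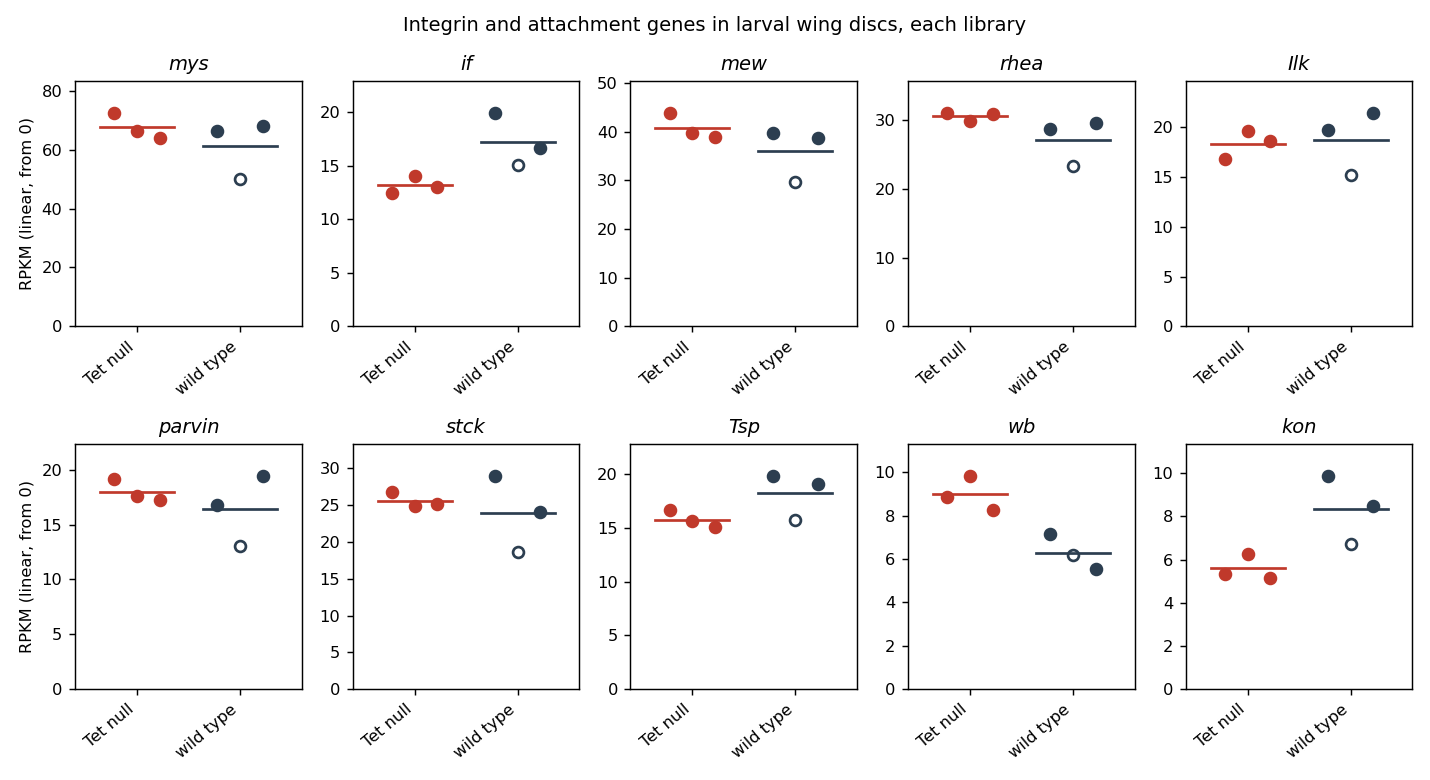
RPKM of the 10 genes in each wing disc library (points; linear axes from 0; lines are means of 3 libraries; the open point is wild-type library 2, which stood apart). *if* and *kon* have all 3 *Tet null* libraries below the wild-type libraries, *wb* and *rhea* have them above, and the open point is the lowest wild-type value in 9 of the 10 panels.

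The matrix gene *wb* had 8.88, 9.84 and 8.26 RPKM in *Tet null* wing discs, against 7.15, 6.19 and 5.54 RPKM in wild-type wing discs. Each *Tet null* library was above each wild-type library. The log2 fold change was 0.49 (SE 0.17, 95% interval 0.13 to 0.84, limma adjusted *P* = 0.12), a level 1.40 times that of wild type. Relative to the median of all genes it was 0.56, 0.46 without wild-type library 2, 0.49 with the background subtracted and 0.69 with scaling to the reads on genes. *Tsp*, the other ligand, had 16.6, 15.6 and 15.0 RPKM in *Tet null* wing discs against 19.8, 15.7 and 19.1 RPKM in wild-type wing discs, with only wild-type library 2 inside the *Tet null* range (log2 fold change -0.20, SE 0.16, limma adjusted *P* = 0.55). Without that library *Tsp* was at -0.30 (SE 0.0896, limma adjusted *P* = 0.13).

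The targeting receptor gene *kon* had 5.35, 6.25 and 5.16 RPKM in *Tet null* wing discs, against 9.88, 6.70 and 8.47 RPKM in wild-type wing discs. All *Tet null* libraries were lower, and the wild-type library nearest to them was library 2. Its log2 fold change was -0.53 (SE 0.18, 95% interval -0.91 to -0.15, limma adjusted *P* = 0.11). Relative to the median of all genes, *kon* was at -0.45, at -0.69 without wild-type library 2, at -0.55 with the background subtracted and at -0.32 with scaling to the reads on genes. Under that last scaling, chosen after seeing the data, *kon* was called (log2 fold change -0.70, limma adjusted *P* = 0.030). With the replicate numbers as a block, *kon* and *wb* had limma adjusted *P* of 0.022 and 0.033, but their folds stayed under the limit of 1.5 and neither was called.

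Among the subunits, *if* had 12.5, 14.0 and 13.0 RPKM in *Tet null* wing discs, against 19.9, 15.0 and 16.7 RPKM in wild-type wing discs. The *Tet null* libraries were again all lower (log2 fold change -0.37, SE 0.16, 95% interval -0.70 to -0.03, limma adjusted *P* = 0.23), and relative to the median of all genes the value was -0.29, or -0.48 without wild-type library 2. *mew* had 43.8, 39.8 and 38.9 RPKM in *Tet null* wing discs against 39.7, 29.6 and 38.7 RPKM in wild-type wing discs, where library 2 was the low one (log2 fold change 0.19, SE 0.16, 95% interval -0.15 to 0.53, and 0.06 without that library). *mys* had 72.4, 66.4 and 64.0 RPKM in *Tet null* wing discs and 66.1, 50.0 and 67.8 RPKM in wild-type wing discs, with 0.15 (SE 0.17) over all libraries and 0.01 without library 2. Whether the *mew* difference of IFM and that of the disc differ was not tested.

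The adaptor genes were steady in the disc. *rhea* had 31.0, 29.7 and 30.8 RPKM in *Tet null* wing discs against 28.6, 23.2 and 29.5 RPKM in wild-type wing discs, a narrow gap with a log2 fold change of 0.17 (SE 0.16, limma adjusted *P* = 0.58), or 0.0676 (SE 0.0748, limma adjusted *P* = 0.64) without wild-type library 2. The groups of *Ilk*, *parvin* and *stck* overlapped, with log2 fold changes of -0.02, 0.14 and 0.12 and intervals within -0.36 to 0.49, and without wild-type library 2 they were at -0.16, -0.00861 and -0.0452. *rhea* also had the lowest coefficient of variation over the 6 wing disc libraries, 9.95%, and *kon* the highest, 26.6%. The directions of *mys*, *rhea*, *parvin* and *stck*, above 0 as deposited, turned with scaling to the reads on genes, where they lay between -0.06 and -0.003.

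Markers of other cell types changed in the disc as well. Of 5 adult muscle precursor markers, led by *Mef2* and *twi*, limma called 2 lower in *Tet null*, with sums of 44.7 to 51.4 RPKM against 64.9 to 93.1 RPKM in wild-type wing discs. The tendon cell markers summed to 28.4 to 28.8 RPKM in *Tet null* against 35.5 to 45.0 RPKM in wild-type wing discs, with 1 of 4 called lower. All 4 fat body markers, led by *Lsp1beta*, and 3 of 7 hemocyte markers were called higher in *Tet null*. So were 1 trachea marker and 1 disc epithelium marker, and 1 cuticle marker was called lower. The most abundant hemocyte and disc epithelium markers, *crq* and *Fas3*, were not among them. They averaged 11.4 and 183 RPKM in *Tet null* against 11.9 and 183 RPKM in wild-type wing discs. The trachea list was led by *verm* (280 against 163 RPKM) and the cuticle list by *Cpr51A* (15.4 against 16.7 RPKM). No marker of flight muscle, neurons or glia was called. Without wild-type library 2, 2 adult muscle precursor markers were called lower, and 1 hemocyte, 1 fat body, 1 trachea and 1 disc epithelium marker were called higher, with 0 tendon cell and 0 cuticle markers called. Their part in the values of *kon*, *if* and *wb* was not tested.

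The balance of the subunits was read from the ratio of each alpha transcript to *mys* in the same library, which does not depend on the scaling of libraries. *if* over *mys* was 0.319 and 0.362 in *Tet null* IFM against 0.442 and 0.561 in wild-type IFM. It was 0.442 and 0.499 in *Tet CD* IFM against 0.554 and 0.680 in *Tet-GFP* IFM. In wing discs it was 0.172, 0.211 and 0.204 in *Tet null* against 0.301, 0.301 and 0.246 in wild type. In all 3 comparisons, which share no libraries, every mutant library had the lower ratio, by -0.55, -0.39 and -0.53 on the log2 scale. The control lines differed as well, with a mean log2 ratio of -0.70 in *Tet-GFP* and -1.01 in wild-type IFM. The *Tet CD* mean, -1.09, was near that of wild type. How often ratios of other genes separate the groups was not counted. The two-sided exact permutation tests gave *P* = 0.33, 0.33 and 0.1, the smallest these group sizes allow, and adjusted over the 6 ratio tests made each was 0.4. Without wild-type library 2 the wing disc difference was -0.48 (exact permutation *P* = 0.1).

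For *mew* over *mys*, *Tet null* IFM had 0.0868 and 0.0996 and wild-type IFM 0.207 and 0.187. This was the widest of the ratio differences, at -1.08 on the log2 scale (exact permutation *P* = 0.33, the smallest possible, adjusted 0.4). *Tet CD* IFM, at 0.192 and 0.175, lay partly below *Tet-GFP* IFM, at 0.181 and 0.253 (difference -0.22, exact permutation *P* = 0.667). In wing discs the ratio was nearly constant, 0.598 to 0.608 in *Tet null* and 0.570 to 0.600 in wild type (difference 0.0391, exact permutation *P* = 0.2, adjusted 0.4, and 0.0450 without wild-type library 2).

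**Figure D5:**
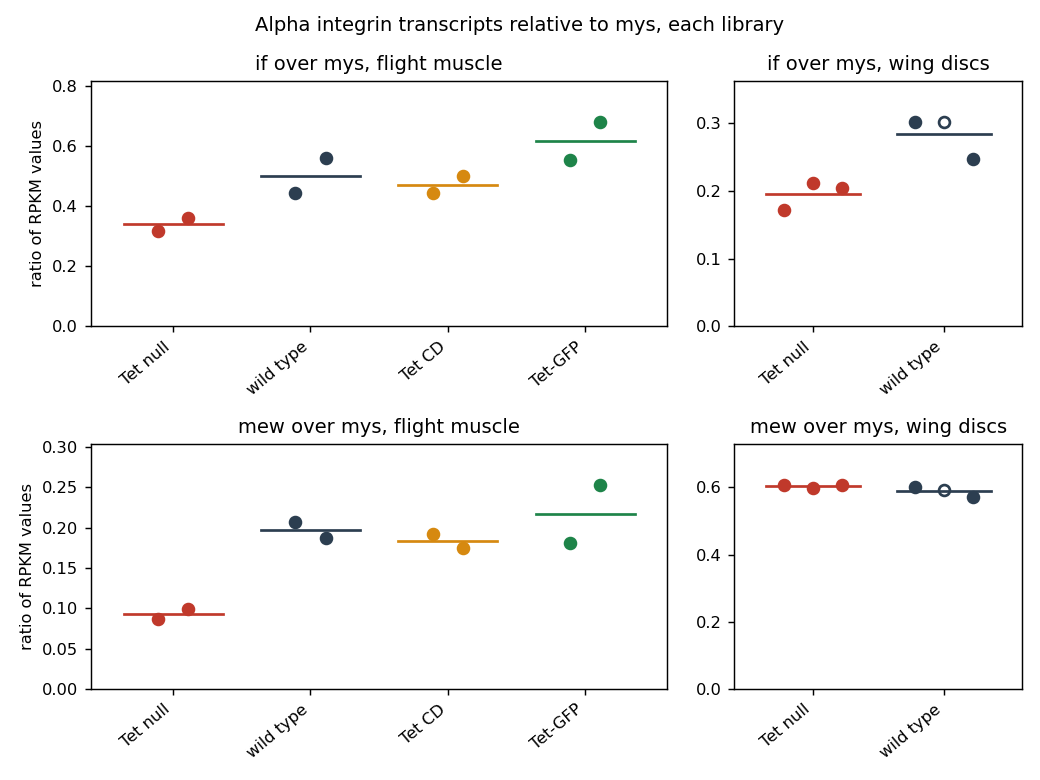
Ratio of *if* (top) and *mew* (bottom) RPKM to *mys* RPKM in each library of IFM (left) and wing discs (right); lines are group means, axes start at 0 and differ between panels, and the open point is wild-type wing disc library 2. *if* over *mys* is lower in each mutant than in its control, at 0.319 and 0.362 in *Tet null* against 0.442 and 0.561 in wild-type IFM. *mew* over *mys* is 0.0868 and 0.0996 in *Tet null* IFM, below the other 6 IFM libraries, and it stays between 0.570 and 0.608 in wing discs.

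A wider set of 38 adhesion genes in 4 lists, counted without the 10, was read in the same fits. Between *Tet null* and wild-type IFM, 36 were tested and limma called 2, where 8.29% of all genes tested were called. *Fit2*, one of the fly kindlins that help to activate integrins, fell to 3.26 and 3.51 RPKM in *Tet null* and 9.15 and 12.9 RPKM in wild-type IFM (log2 fold change -1.55, SE 0.25, limma adjusted *P* = 0.040). *Tig*, the matrix protein tiggrin that binds the integrin containing alpha PS2, rose to 10.9 and 7.65 RPKM in *Tet null* and 2.33 and 3.28 RPKM in wild-type IFM (log2 fold change 1.56, SE 0.28, limma adjusted *P* = 0.047). Both calls were lost whenever any of the 4 libraries was left out. In the *Tet CD* pair, where limma called 0 of 36, *Fit2* had 9.49 and 14.5 RPKM in *Tet CD* IFM against 6.38 and 7.86 RPKM in *Tet-GFP* IFM, and *Tig* had 3.87 and 3.61 RPKM in *Tet CD* IFM within the 5.95 and 2.19 RPKM of *Tet-GFP* IFM.

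By role, limma called in *Tet null* against wild-type IFM 0 of the 2 other integrin subunits tested of 4, 1 of 14 cytoplasmic adhesion genes (*Fit2*), 1 of 10 ligand and matrix genes (*Tig*) and 0 of 10 targeting and tendon partner genes. Their median log2 fold changes were 0.02, 0.06, 0.23 and -0.23, beside -0.03 for all genes. Between *Tet-GFP* and wild-type IFM and between *Tet null* and *Tet-GFP* IFM 0 genes of these lists were called. At an unadjusted limma *P* under 0.05 were 2 and 8 of them (10.3% and 26.6% of all genes). In the *Tet CD* pair 3 were at that level (6.07% of all genes).

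In wing discs 36 of the 38 genes were tested and limma called 1, where 4.15% of all genes tested were called. *sr*, the transcription factor that specifies tendon cells, fell to 4.22, 3.69 and 3.28 RPKM in *Tet null*, against 9.29, 6.49 and 5.62 RPKM in wild type (log2 fold change -0.83, SE 0.20, limma adjusted *P* = 0.022). All *Tet null* libraries were lower, and the call was lost when wild-type library 2 was left out (log2 fold change -0.88, limma adjusted *P* = 0.098) or when the receptor background was subtracted (-0.67, limma adjusted *P* = 0.22), as well as without *Tet null* library 3 or wild-type library 1. With the replicate block, limma called 3: *sr* and, named after their values were seen, *Tig* and *mspo*. *mspo* was at 0.203 ± 0.101 RPKM in *Tet null* and 2.12 ± 1.32 RPKM in wild type (SD, n = 3), with 3.65 RPKM in wild-type library 2. Of the lists, the targeting and tendon partner genes had 1 of 10 called and a median of -0.25, the cytoplasmic genes 0 of 14 and 0.13, the ligands and matrix 0 of 9 tested and 0.07, and the other subunits 0 of 3 tested and -0.12, beside -0.08 for all genes.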

How the data were processed

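RNA-seq libraries from 14 samples were compared. The authors made paired-end Ovation SoLo libraries, aligned the reads to dm6 with HISAT2 (2.1.0), counted them per gene with HTSeq-count (0.11.2) and computed RPKM with DESeq2 (1.22.2) in R. For trimming, the methods name Cutadapt and the submitters' processing notes Trimmomatic (0.32). The deposited values are RPKM, 1 table for IFM and 1 for wing discs, written with decimal commas, and they already carry median-ratio size factors within each pair of groups. The authors' test needs counts, which were not used here.

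Group comparisons used limma 3.58.1 in R 4.3.3 (lmFit, eBayes with a trend) on log2(RPKM + 0.5). They covered genes averaging 0.5 RPKM or more over the libraries of a comparison, with *P* values adjusted over all of them. The procedure was run on simulated data with 200 changed genes, to check the fold estimates. The simulated noise was independent for each value, so deviations shared across a library were not covered. The groups came from the sample labels. The labels call the samples biological replicates, and the *P* values measure the spread between them. Depth was estimated from the spacing of low values, of which 97.9% or more lay within 1% of whole reads in each library, and it covers counting only. Positions came from the Ensembl release 115 annotation on the same assembly.

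The 10 genes, the 4 wider lists, the 10 marker lists and the tests were chosen with earlier results of these data known. The text names *Tet*, the 10 genes, wider-list genes that were called (at most the 8 largest changes), the most abundant marker of each list, and the 3 genes most like the gene with the largest change. Whether the wing disc replicate numbers pair the samples is not given. Same-numbered libraries had r of 0.101, 0.262 and 0.155, and differently numbered ones -0.272 to 0.144. These ranges overlap, so the replicate block is given only as an alternative. The alternatives were constants of 0.1 and 1, no limit and a limit of 1 RPKM, median-ratio scaling, eBayes without the trend, the replicate block, all 4 IFM groups in one fit and each library left out. Background subtraction, scaling to reads on genes and a block by column number were added after seeing the data.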

Additional observations from a re-analysis of the deposited data

Results flagged for a closer look

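*Tsp* went opposite ways for the 2 alleles in IFM, each set against its own control line. Every *Tet null* library was below every wild-type library, and every *Tet CD* library was above every *Tet-GFP* library. The control lines differed too, at -1.63 on the log2 scale for *Tet-GFP* against wild-type IFM. Effects of the alleles and a difference between the control lines therefore cannot be told apart. The test of the *Tet null* effect minus the *Tet CD* effect gave -3.47 (SE 0.68, limma adjusted *P* = 0.088). It lay between -4.03 and -2.90 when each library was left out in turn. Its limma adjusted *P* ran from 0.084 to 0.23 over the alternatives, so it did not pass the threshold.

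*wb* lay on opposite sides of 0 in the 2 tissues without overlap of the groups, and it was called in neither. It was at -0.21 (SE 0.19, limma adjusted *P* = 0.53) in *Tet null* against wild-type IFM. In *Tet null* against wild-type wing discs it was at 0.49 (SE 0.17, limma adjusted *P* = 0.12). Groups did not overlap for 59.2% and 25.4% of all genes in these comparisons. Against *Tet-GFP* IFM, *Tet null* IFM was the higher, also without overlap (0.37, SE 0.21, limma adjusted *P* = 0.31). The difference between the tissues was not tested, because the tables were normalised separately.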

How the results depend on the processing

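Over 58 fold changes of the 10 genes, 794 alternatives were computed: 744 kept direction and call, 46 turned in direction, all for values that were not called, and 4 became called. The cause of these shifts was not tested. The replicate block made the number of the 10 genes called between *Tet null* and wild-type IFM 1 (*Tsp*), the fit of all 4 IFM groups 1 (*mew*) and scaling to reads on genes 1 (*Tsp*), against 0, and scaling to reads on genes made it 1 (*kon*) in wing discs. The wider lists in *Tet null* against wild-type IFM had 2 calls, 0 without a limit on low values, 1 with the block and 0 with any library left out, where the count over all genes dropped from 466 higher and 236 lower to between 0 and 12 higher and 0 and 35 lower. Without a limit on low values that count was 43 higher and 49 lower. In wing discs the lists had 1 call, 2 with a constant of 0.1, 0 without a limit, 0 without the trend, 3 with the replicate block, 0 with the background subtracted, 2 with scaling to reads on genes and 0 to 1 with a library left out, and over all genes eBayes without the trend gave 9 higher and 25 lower, no limit 84 and 90, the block 343 and 593, and the library left out 127 to 459 higher and 162 to 459 lower. *Tet null* against *Tet-GFP* IFM gained 1 list gene in the fit of all 4 groups, with 192 genes higher and 115 lower over all genes against 1 and 0, and 156 and 98 without *Tet-GFP* library 1. In that fit *Tet CD* against *Tet-GFP* had 9 and 13, and *Tet-GFP* against wild type 10 and 11, instead of 0. The count for the difference of effects, 19 higher and 38 lower, was 9 and 21 with a constant of 0.1 and 0 to 26 higher and 0 to 102 lower with a library left out.

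Directions turned as follows. Scaling to reads on genes put *if*, *Ilk* and *parvin* at 0.0213, 0.12 and 0.13 in *Tet CD* against *Tet-GFP* IFM, *mys*, *rhea*, *parvin* and *stck* at -0.0267, -0.00256, -0.0292 and -0.0580 in wing discs and *Ilk* at 0.0742 in *Tet null* against *Tet-GFP* IFM. Background subtraction put *Ilk* at 0.0484 in wing discs, and median-ratio scaling *stck* at 0.0136 in *Tet-GFP* against wild-type IFM. Leaving out each library in turn gave, for *Tet null* against wild-type IFM, -0.30 to 0.0636 (*Ilk*), -0.0865 to 0.26 (*parvin*) and -0.62 to 0.0115 (*stck*). For *Tet CD* against *Tet-GFP* IFM it gave -0.32 to 0.0594 (*if*), -0.0204 to 0.0640 (*mew*), -0.14 to 0.0810 (*Ilk*), -0.12 to 0.0671 (*parvin*) and, for the log2 ratio of *mew* to *mys*, -0.46 to 0.0223. For wing discs it gave -0.16 to 0.0812 (*Ilk*), -0.00861 to 0.27 (*parvin*) and -0.0452 to 0.265 (*stck*). For *Tet-GFP* against wild-type IFM it gave -0.28 to 0.14 (*if*), -0.26 to 0.10 (*Ilk*) and -0.16 to 0.10 (*stck*), and for *Tet null* against *Tet-GFP* IFM -0.59 to 0.0423 (*stck*) and -0.42 to 0.20 (*Tsp*). For the difference of effects it gave -0.23 to 0.24 (*mys*), -0.37 to 0.0523 (*if*), -0.11 to 0.15 (*rhea*), -0.27 to 0.0933 (*Ilk*), -0.0625 to 0.285 (*parvin*) and -0.20 to 0.36 (*kon*).

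In IFM the replicate numbers of *Tet null* and wild type are only shared numbers (r of 0.116 with 2 pairs). *Tet CD* and *Tet-GFP* carry different numbers in titles and table, so a block by label was not run, and a block by column number (r of 0.524) left 0 of the 10 genes and 0 list genes called. The replicate block changed no other call.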
